A study of Mus musculus with 6 samples.

Results

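Inhibitory neurons of the cerebellum make GABA or glycine, load both into vesicles through a shared carrier, and act on receptors held in place by a common scaffold. The 9 genes examined here cover that route: the GABA-synthesising enzymes Gad1 and Gad2, the vesicular carrier Slc32a1, the glycine transporter Slc6a5, the glycine receptor subunits Glra1, Glra2, Glra3 and Glrb, and the scaffold gene Gphn. Every probe set that the platform annotation gives to exactly 1 of these symbols was taken. That gave 20 of the 45037 probe sets tested, with 1 probe set for Glra2, 3 for Gphn, 4 for Slc32a1 and 2 for each of the other 6 genes. The rule uses symbols and no measured value, although the genes were proposed with earlier results of these data known. Steady-state mRNA was measured in dissected, frozen cerebellum on Affymetrix GeneChip Mouse Genome 430 2.0 arrays, with 3 arrays from wild-type mice and 3 from transgenic mice carrying daDREAM, each array an independent biological replicate. DREAM, the product of Kcnip3, represses transcription until calcium binds it, and daDREAM is a dominant active mutant that calcium does not release from DNA. No other allele or treatment is labelled in either group. The sources used here do not give age, sex, strain or the promoter driving the transgene. The array names of the 3 transgenic samples share 1 prefix.

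Gad1 and Gad2 encode the glutamate decarboxylases GAD67 and GAD65, which turn glutamate into GABA. Slc32a1 encodes VGAT, which fills vesicles with GABA and glycine, and Slc6a5 encodes GlyT2, which returns glycine to the nerve terminal. In the cerebellum, Purkinje cells, stellate and basket cells are GABAergic, while many Golgi cells release glycine as well as GABA. Glycine receptors are chloride channels built of alpha subunits (Glra1, Glra2, Glra3) with the beta subunit Glrb, and gephyrin, the product of Gphn, binds Glrb and also holds GABA-A receptors at inhibitory synapses.

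The arrays carried the signal of cerebellum in both groups. The mean level of 7 Purkinje cell markers lay between 10.52 and 10.73 on the 6 arrays, and that of 7 granule cell markers between 10.56 and 10.67 (log2). Arrays agreed least within daDREAM, where correlations across probe sets ran from 0.973 to 0.990, against 0.989 to 0.997 within wild type. Replicates 1 and 3 lay at the ends of that spread: the interquartile range of all values was 3.49 in daDREAM replicate 1 and 2.97 in daDREAM replicate 3, against 3.10 to 3.38 in wild type. Values without either array are therefore given for the members and pathway lists that depend on them. The 2 probe sets of Kcnip3 differed by 0.10 and 0.11 between the genotypes, without passing the test, and whether they lie in the transgene is not known here.

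No member passed the test for a difference between wild-type and daDREAM cerebellum. Of the 20 probe sets, 0 passed limma's test after Benjamini-Hochberg adjustment over all 45037 probe sets, where 0% passed, and 0 reached an unadjusted p under 0.05, where 1.81% of all probe sets did. Lower values in daDREAM were found at 12 of the 20, beside 47.3% of all probe sets. The differences (daDREAM minus wild type, log2) ran from -0.25 at Gphn to 0.34 at Glra3, with a median of -0.04 beside 0.01 over all probe sets. The median differed with signal level. Over the 12 probe sets with a mean level of at least 5 it was -0.14, beside -0.02 over all such probe sets. Of these 12, 10 were lower, beside 54.6%. Without daDREAM replicate 3 it was 6 of the 12, beside 45.1%. With the hybridization controls, which are spiked transcripts, as a covariate, it was 3 of the 12, beside 32.7%. With 1 probe set per gene the median was -0.13. With probe sets averaged per gene it was -0.0033, with 5 of 9 genes lower, beside 45.1% of all genes. Over all 20 probe sets the median lay between -0.11 and 0.01 when 1 array was left out, the highest without daDREAM replicate 3. All 20 of the 95% intervals held 0. All 20 also lay within a 2-fold change in either direction, and 13 lay within 1.5-fold. In whole tissue, fewer cells of a type and less RNA per cell cannot be told apart.

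**Figure D1:**
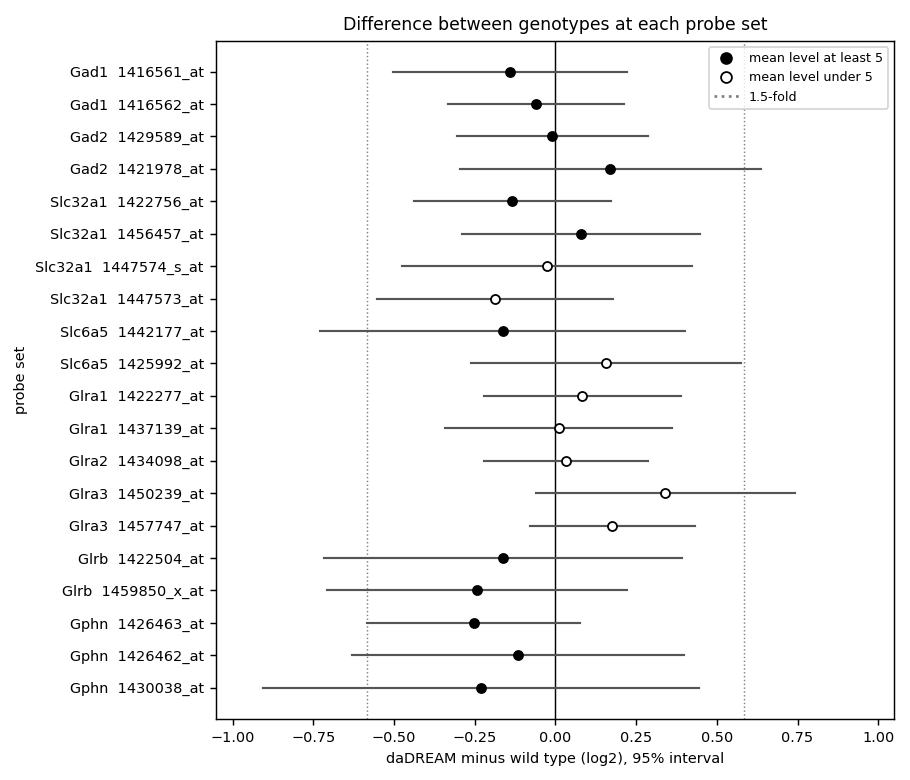
Difference between genotypes (daDREAM minus wild type, log2) at each of the 20 probe sets, with points for limma estimates and lines for 95% intervals; filled points have a mean level of at least 5 and dotted lines mark 1.5-fold. Every interval crosses 0, and the widest belong to Slc6a5, Glrb and Gphn.

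Since DREAM binds the downstream regulatory element (DRE), whose core is GTCA, the 250 bases before each annotated start were searched for that core on both strands. RefSeq (GRCm38.p6) gave 9 promoters for 8 of the 9 genes, with 2 starts for Slc6a5. The core was found in 6 of these 9 promoters, beside 80.2% of all 32851 promoters, so its presence is common. Gad2 and the upstream start of Slc6a5 held 4 cores each, and 11.4% of all promoters held 4 or more. The downstream start of Slc6a5, which is not printed below, held 3, and 25.9% of all promoters held 3 or more. The promoters of Slc32a1, Glrb and Gphn held 0. Tandem cores in the same orientation, at most 10 bases apart, were in 0 of the 9 and in 7.83% of all promoters. The cAMP response element TGACGTCA, which contains the core on both strands, was in 0 of the 9 and in 1.55% of all. The promoters of both GABA-synthesising enzymes, both transporters and the member with the largest difference are printed 5′ to 3′ so that the cores, in capitals (GTCA, or TGAC where it lies on the other strand), can be set beside the values.
Gad1 promoter, chr2:70561879-70562128, plus strand: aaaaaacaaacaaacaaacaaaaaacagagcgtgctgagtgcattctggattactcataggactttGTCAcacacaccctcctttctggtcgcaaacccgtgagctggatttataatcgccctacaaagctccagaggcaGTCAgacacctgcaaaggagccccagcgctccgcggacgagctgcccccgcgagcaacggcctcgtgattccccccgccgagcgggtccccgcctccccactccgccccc
Gad2 promoter, chr2:22622077-22622326, plus strand: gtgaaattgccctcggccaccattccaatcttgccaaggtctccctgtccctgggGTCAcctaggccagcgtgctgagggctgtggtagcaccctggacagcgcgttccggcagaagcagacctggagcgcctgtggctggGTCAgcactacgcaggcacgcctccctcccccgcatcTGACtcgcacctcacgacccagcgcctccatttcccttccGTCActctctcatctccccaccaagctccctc
Slc32a1 promoter, chr2:158610508-158610757, plus strand: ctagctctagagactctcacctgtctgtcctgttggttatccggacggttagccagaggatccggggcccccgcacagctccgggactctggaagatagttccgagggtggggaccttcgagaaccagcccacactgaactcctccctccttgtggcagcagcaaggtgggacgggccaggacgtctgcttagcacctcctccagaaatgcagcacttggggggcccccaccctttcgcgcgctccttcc
Slc6a5 promoter, chr7:49910049-49910298, plus strand: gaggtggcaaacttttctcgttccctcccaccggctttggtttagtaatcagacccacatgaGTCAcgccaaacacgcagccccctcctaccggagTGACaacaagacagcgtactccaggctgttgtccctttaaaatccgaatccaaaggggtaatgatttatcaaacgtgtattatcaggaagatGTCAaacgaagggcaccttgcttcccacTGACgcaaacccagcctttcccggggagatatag
Glra3 promoter, chr8:55940168-55940417, plus strand: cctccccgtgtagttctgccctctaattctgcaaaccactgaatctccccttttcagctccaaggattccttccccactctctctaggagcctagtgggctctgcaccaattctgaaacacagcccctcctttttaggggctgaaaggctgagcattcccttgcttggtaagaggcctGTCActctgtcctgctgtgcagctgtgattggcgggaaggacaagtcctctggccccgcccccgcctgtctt
A match describes letters in these windows only. Bases after the start were not searched, so a count of 0 does not show that a gene lacks the element. The genes with most cores, Gad2 and Slc6a5, differed by -0.01 and -0.16 at their brightest probe sets. Gad1, with 2 cores, differed by -0.14, and Glra2 and Glra3, with 1 each, by 0.03 and 0.34. Those with none, Slc32a1, Glrb and Gphn, differed by -0.13, -0.16 and -0.25. A relation of cores to differences was not tested.

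The GABA-synthesising enzymes did not pass the test, and the value of Gad1 depended on the daDREAM arrays counted. Gad1 at its brighter probe set, 1416561_at, read 10.89, 10.83 and 10.84 on the wild-type arrays and 11.02, 10.67 and 10.45 on the daDREAM arrays. The wild-type arrays lay close together, with daDREAM replicate 1 above them and replicates 2 and 3 below them. The difference was -0.14 (95% interval -0.50 to 0.22), from 10.85 ± 0.03 to 10.71 ± 0.29 (SD, n = 3). Without daDREAM replicate 1 it was -0.29 (limma unadjusted p = 0.045), and without daDREAM replicate 3 it was -0.01. Its other probe set, 1416562_at, differed by -0.06 (interval -0.33 to 0.21) and had similar spread in both genotypes, with SDs of 0.11 in wild type and 0.08 in daDREAM. Gad2 at 1429589_at read 9.23, 9.25 and 9.23 in wild type and 9.42, 9.20 and 9.06 in daDREAM. Again daDREAM replicate 1 was the highest array and replicate 3 the lowest, and the means differed by -0.01 (interval -0.31 to 0.29). The dimmer probe set of Gad2, 1421978_at, had the opposite sign, at 0.17 (interval -0.30 to 0.64).

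The vesicular carrier did not pass the test either. Slc32a1 at 1422756_at read 8.96, 9.05 and 8.84 in wild type and 8.96, 8.86 and 8.63 in daDREAM. The groups overlapped, with daDREAM replicate 3 the lowest of the 6 arrays, and the difference was -0.13 (interval -0.44 to 0.17). The 3 other probe sets of Slc32a1 were dimmer, with means from 4.59 to 5.88, and differed by 0.08, -0.03 and -0.19. Their signs did not match each other, and none of the 3 reached an unadjusted p under 0.05.

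Slc6a5, the marker of glycinergic neurons, varied widely among the daDREAM arrays. At 1442177_at it read 6.28, 6.29 and 6.19 in wild type and 6.65, 6.06 and 5.56 in daDREAM. Wild-type arrays thus lay within 0.10 of each other, whereas daDREAM replicate 1 stood 1.09 above daDREAM replicate 3, on opposite sides of the wild-type arrays. The SD was 0.06 in wild type and 0.55 in daDREAM, and the difference of the means was -0.16 (interval -0.73 to 0.40). The dimmer probe set, 1425992_at, turned the other way. It read 3.83, 3.91 and 3.85 in wild type and 3.61, 4.14 and 4.31 in daDREAM, with replicate 1 lowest and replicate 3 highest, and differed by 0.16 (interval -0.26 to 0.58). The order of the daDREAM arrays thus differed between these probe sets. Every value of 1425992_at lay below the array medians of 5.12 to 5.23, and without a detection call cannot be separated from background. Among all probe sets with a mean under 5, daDREAM replicate 3 was highest and replicate 1 lowest at 18.7%, and the reverse held at 3.54%.

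The alpha subunits of the glycine receptor gave low signal. Glra1, the main adult alpha subunit of brainstem and spinal cord, read 3.33, 3.33 and 3.65 in wild type and 3.46, 3.50 and 3.60 in daDREAM at 1422277_at. All 6 values lay below the array medians of 5.12 to 5.23, as did every value of the 5 alpha subunit probe sets, and without a detection call they cannot be separated from background. Glra1 differed by 0.08 (interval -0.22 to 0.39) and by 0.01 at 1437139_at. Glra2, the subunit prominent in immature neurons, read 3.20, 3.21 and 3.30 in wild type and 3.21, 3.29 and 3.31 in daDREAM. These groups overlapped almost fully, at a difference of 0.03 (interval -0.22 to 0.29).

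Glra3 had the largest difference of the 9 genes. At 1450239_at it read 3.50, 3.47 and 3.77 in wild type and 3.59, 3.99 and 4.18 in daDREAM. Replicates 2 and 3 of daDREAM were above all wild-type arrays and replicate 1 was not, and the difference was 0.34 (interval -0.06 to 0.74, unadjusted p = 0.0868, limma adjusted p = 0.998). The second probe set, 1457747_at, read 2.82, 2.87 and 2.93 in wild type and 2.98, 3.10 and 3.07 in daDREAM. It was the 1 probe set of the 20 whose genotypes did not overlap, where 6.01% of all probe sets did not, 3.75% with daDREAM higher. It differed by 0.18 (interval -0.08 to 0.43). Both probe sets of Glra3 were thus higher in daDREAM, at signal that cannot be separated from background. The fourth alpha subunit gene, Glra4, which is no member, differed by 0.10 at a wild-type level of 3.56.

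Glrb, which carries the gephyrin-binding loop of the receptor, was bright and resembled Slc6a5. At 1422504_at it read 8.83, 8.86 and 8.71 in wild type and 9.17, 8.63 and 8.11 in daDREAM. The wild-type arrays were within 0.15 of each other, and daDREAM replicate 1 was above all of them while replicates 2 and 3 were below. The means differed by -0.16 (interval -0.72 to 0.39). At 1459850_x_at, whose name marks probes that can match other transcripts, the values were 8.04, 8.01 and 7.94 in wild type and 8.23, 7.42 and 7.61 in daDREAM, a difference of -0.24 (interval -0.71 to 0.22). Replicate 1 was again the high array there, and replicate 2 the lowest.

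Gphn was lower in daDREAM by 0.25 at its brightest probe set, which did not pass the test. At 1426463_at it read 8.70, 8.78 and 8.74 in wild type and 8.73, 8.47 and 8.26 in daDREAM. Replicate 1 fell inside the wild-type range and the other 2 daDREAM arrays below it, at 8.74 ± 0.04 against 8.49 ± 0.24 (SD, n = 3; interval of the difference -0.58 to 0.08, limma unadjusted p = 0.114 and adjusted p = 0.998). The 2 other probe sets of Gphn differed by -0.12 and -0.23, so all 3 had the same sign over the 6 arrays. Without daDREAM replicate 3 the shared sign was lost, at -0.14 for 1426463_at, 0.11 for 1426462_at and 0.00 for 1430038_at, and with the hybridization controls as a covariate all 3 were positive (0.05, 0.57 and 0.77). At 1430038_at the daDREAM arrays spanned 1.16, from 6.43 in replicate 1 to 5.27 in replicate 3, and the interval was the widest of the 20, from -0.91 to 0.45.

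**Figure D2:**
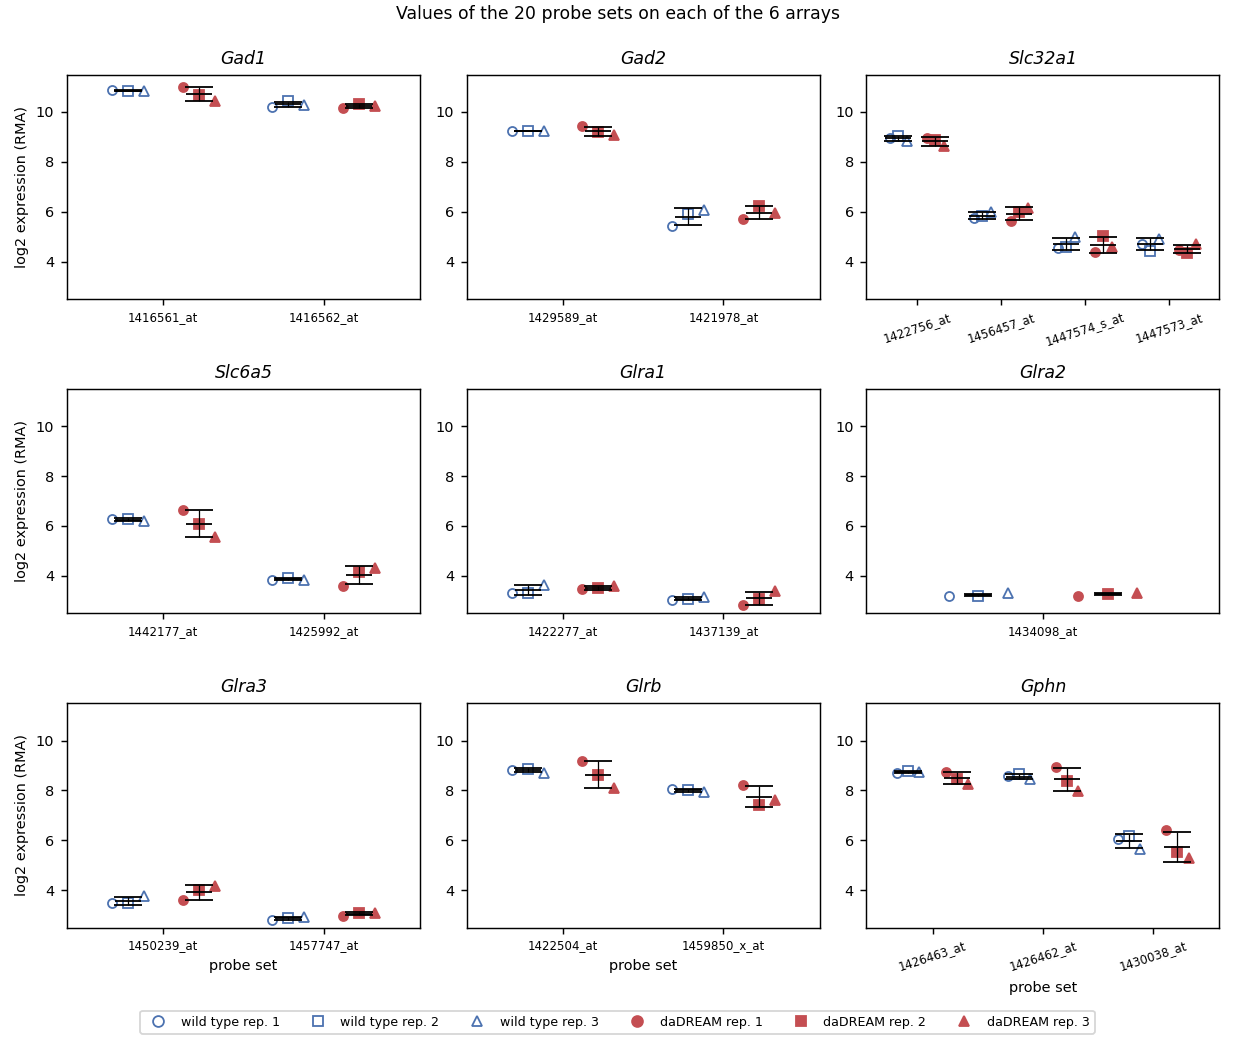
log2 expression of the 20 probe sets on each of the 6 arrays, grouped by gene; open blue symbols are wild type, filled red symbols daDREAM, shapes mark the replicate, and black bars are means ± SD (n = 3). At Slc6a5 1442177_at and Glrb 1422504_at the wild-type points lie close together and the daDREAM points spread to both sides of them, while at Gphn 1426463_at daDREAM replicate 1 lies among the wild-type points and the others below.

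The daDREAM arrays spread further apart than the wild-type arrays at 15 of the 20 probe sets, which is 75%, beside 69.6% of all probe sets. Among the 12 member probe sets with a mean level of at least 5, daDREAM replicate 1 was the highest and replicate 3 the lowest of the 6 arrays at 6, or 50%, where 20.9% of all such probe sets had that pattern. After renewed quantile normalization, which makes the 6 distributions identical, it was 5 of 12 beside 12.4%. A count of this pattern was not planned, and the pattern was read from these same values. Gphn 1426462_at and 1430038_at were both among the 6, so these are not 6 separate genes. After the normalization the gap of daDREAM replicate 1 over replicate 3 was 0.99 at Slc6a5 (1442177_at) and 0.79 at Glrb (1422504_at), from 1.09 and 1.06 as deposited. At the other Glrb probe set (1459850_x_at) it went from 0.62 to 0.32. The 3 probe sets of Gphn went from 0.47 to 0.18 (1426463_at), from 0.95 to 0.67 (1426462_at) and from 1.16 to 1.12 (1430038_at). At Gad1 (1416561_at) it went from 0.57 to 0.41, at Gad2 (1429589_at) from 0.36 to 0.09 and at Slc32a1 (1422756_at) from 0.33 to 0.06. As a share of its size, the gap thus narrowed most on rescaling at Gad2, Slc32a1 and the brightest probe set of Gphn, and least at Slc6a5 1442177_at and Gphn 1430038_at among these probe sets.

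**Figure D3:**
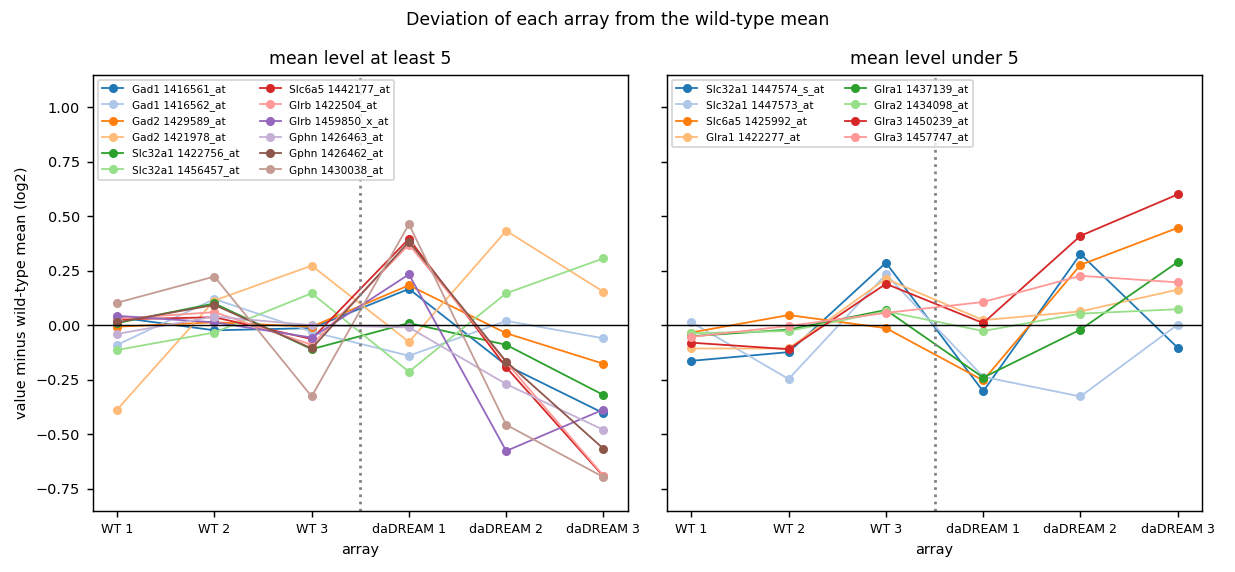
Value on each array minus the wild-type mean of the same probe set (log2), for the 12 probe sets with a mean level of at least 5 and the 8 below it; lines only join the points of a probe set, since replicates have no order. Slc6a5 1442177_at, Glrb 1422504_at and Gphn 1426462_at lie above 0 in daDREAM replicate 1 and below it in replicates 2 and 3, whereas Glra3 1450239_at is highest in replicate 3.

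Other measures moved with these arrays, and their part in the pattern was not tested. The 18 hybridization controls, transcripts spiked at known amounts, averaged 8.99, 8.99 and 9.48 on the wild-type arrays and 9.47, 10.14 and 10.47 on the daDREAM arrays (exact permutation p = 0.2, 2-sided, where 3 against 3 cannot go below 0.1). Fitted as a covariate, that level turned the sign at 16 of the 20 probe sets, with Slc6a5 (1442177_at) and Glrb (1422504_at) both at 0.58 and Glra3 (1450239_at) at -0.17. In that fit 6 of the 20 had an unadjusted p under 0.05, beside 23.2% of all probe sets, and 0 passed after adjustment, with a smallest adjusted p of 0.0833 at Gphn 1430038_at. The 3′ minus 5′ signal of beta-actin, a sign of RNA integrity and labelling, was 0.78 to 0.79 in wild type and 0.96, 0.58 and 0.63 in daDREAM (exact permutation p = 0.7). For Gapdh it was 0.25, 0.29 and 0.12 in wild type and 0.25, 0.01 and 0.08 in daDREAM (exact permutation p = 0.3). Markers of cerebellar Golgi and molecular layer interneurons, which are GABAergic or glycinergic cells, averaged 7.70 to 7.75 over 9 genes in wild type and 7.91, 7.85 and 7.38 in daDREAM. That list had 5 genes higher and 4 lower in daDREAM, with a median of 0.07 but a mean of -0.01, which differ in sign. Its median was -0.02 without daDREAM replicate 1, -0.15 without replicate 2 and 0.17 without replicate 3. Purkinje cell markers had 3 of 7 higher and 4 lower, with a median of -0.02.

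Among the fits without 1 array, the one without daDREAM replicate 1 gave the most unadjusted p-values under 0.05. In that fit the unadjusted p was under 0.05 at 9 of the 20 probe sets, 7 lower and 2 higher in daDREAM, beside 16.1% of all probe sets, and genotypes did not overlap at 11, beside 32.7%. None of the 20 passed after adjustment, with a smallest adjusted p of 0.215 at Glrb 1459850_x_at. Slc6a5 (1442177_at) differed by -0.44, Glrb (1422504_at) by -0.43 and Gphn (1426463_at) by -0.38, and Glra3 (1450239_at) by 0.51. Leaving out daDREAM replicate 3 instead turned Slc6a5 (1442177_at) to 0.10, Glrb (1422504_at) to 0.10 and Gphn 1426462_at to 0.11, with 0 of 20 at an unadjusted p under 0.05, beside 2.35% of all probe sets, and 40% of the 20 lower, beside 49.7%. The direction at these probe sets of Slc6a5 and Glrb therefore depends on which daDREAM arrays are counted.

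Several members varied together across the 6 arrays. Pearson's r between the brightest probe sets of Slc6a5 and Glrb was 0.998, and 0.976 over the 4 arrays left without daDREAM replicates 1 and 3. It was 0.979 for Slc6a5 with Gad1, 0.928 for Gad1 with Gad2 and 0.869 for Glrb with Gphn, and over the same 4 arrays 0.903, 0.776 and 0.80. Glra3 ran against Glrb at -0.843, but at -0.294 without daDREAM replicates 2 and 3, the arrays farthest from its median. These are descriptions over 6 arrays that share the daDREAM gradient: of 4148 probe sets of other genes with a mean of at least 7 and an SD of at least 0.2, 1283 had an r above 0.9 with Slc6a5. The genes most like Slc6a5 were Prom1 (r = 0.999), Glrb and Dlgap1 (r = 0.997). Those most like Glrb were Lnx2 (r = 0.999), Tcf4 (r = 0.998) and Cspp1 (r = 0.998). Gphn was nearest to Gng10 (r = 0.9996), Suz12 and Dcaf5, and Gad1 to Becn1 (r = 0.997), Zdhhc21 and Spag9. Glra1, whose values cannot be separated from background, had 14 probe sets above 0.9, led by Ttc14 (r = 0.987), Rpf2 and Eif3c, and the same limit holds for these correlations.

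No gene of the wider inhibitory pathway passed the test either. Over 5 lists of related genes, with the brightest probe set standing for each gene, 26 of 51 measured genes were higher in daDREAM, 24 were lower and 1 was equal, and 48% of all genes were lower. None passed the adjusted test and none reached an unadjusted p under 0.05, where 1.42% of all genes did. Over all 103 probe sets of these genes, 4 reached it, or 3.88%, beside 1.81% of all probe sets, and all 4 were higher in daDREAM. They were dimmer probe sets of their genes. Shmt2, the mitochondrial serine-glycine enzyme, had 2 of them, at 0.34 and 0.40, the carbonic anhydrase Car7 had 1 at 0.34, and the pyridoxal kinase Pdxk had 1 at 0.51. Each had an adjusted p of 0.998 (limma), and the brightest probe sets of these genes differed by 0.15, 0.04 and -0.04. Genotypes did not overlap at 2 of the 51, beside 5.59% of all genes. The median over the 51 was 0.00, beside 0.01 over all 18193 genes. Without daDREAM replicate 1 it was -0.05, with 11 of 51 at an unadjusted p under 0.05 (4 higher and 7 lower) beside 16.5% of all genes, and none passed after adjustment. Without daDREAM replicate 3 it was 0.06, with 0 of 51 at an unadjusted p under 0.05, beside 2.35% of all probe sets.

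Uptake and breakdown of GABA and glycine had 4 of 9 measured genes higher and 5 lower, with a median of -0.10. The plasma membrane GABA transporters Slc6a13 and Slc6a11 had the largest differences, 0.24 (interval -0.08 to 0.55) and 0.17 (interval -0.10 to 0.45). Slc6a13 read 6.08, 6.08 and 6.12 in wild type and 6.14, 6.28 and 6.57 in daDREAM, without overlap, and is a gene also known from meninges. The glial glycine transporter Slc6a9 differed by 0.10, and the GABA-degrading enzymes Abat and Aldh5a1 by -0.14 and -0.17. Over all probe sets of the list's genes the median was 0.05, of the other sign. Without daDREAM replicate 1 the list median was -0.30, and without replicate 3 it was 0.09.

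Supply of glutamine and glutamate had 4 of 9 genes higher and 5 lower, with a median of -0.00 and a mean of 0.05, which differ in sign. The median was 0.08 over all probe sets of these genes, -0.09 without daDREAM replicate 1 and 0.09 without replicate 3. Shmt1, the cytosolic enzyme that links serine and glycine, differed by 0.68 (interval -0.19 to 1.55), but its wild-type arrays already spanned 6.27 to 7.33 and overlapped the daDREAM values of 6.62, 7.61 and 7.99. The remaining probe sets of Shmt1 gave 0.08, -0.11 and 0.09. The neuronal glutamine carrier Slc38a1 differed by -0.31 (interval -0.82 to 0.20), with 0.02 at its other probe set. Slc38a3, the astrocytic glutamine carrier, was the other gene of the 51 without overlap, at 7.90, 7.97 and 7.88 in wild type and 8.12, 8.11 and 8.20 in daDREAM, a difference of 0.23 (limma unadjusted p = 0.0711).

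Partners of gephyrin at inhibitory synapses had 12 of 16 genes higher and 4 lower, where 48% of all genes were lower. Without daDREAM replicate 1 it was 10 higher and 6 lower, and without replicate 3 it was 9 higher and 7 lower. The median was 0.08, but 0.03 over all their probe sets, 0.05 without daDREAM replicate 1 and 0.055 without replicate 3. The largest differences were 0.20 at Kif5a, a kinesin heavy chain, and -0.18 at Dynll1, a dynein light chain that binds gephyrin. Nlgn2, the adhesion protein of inhibitory synapses, differed by 0.16, with -0.16 at its other probe set. Lhfpl4, a GABA-A receptor partner, differed by -0.18, with 0.21 at its other probe set. Gphn itself had the sign of the minority. In the synthesis of the molybdenum cofactor, which gephyrin also catalyses, and among the enzymes that use it, 4 of 8 genes were higher, 3 lower and 1 equal, led by Xdh at 0.30 (interval -0.05 to 0.64) and Aox1 at 0.17. The median of that list was 0.04, but 0.12 over all its probe sets and -0.05 without daDREAM replicate 1. Mocs1 and Mocs2, which act upstream of gephyrin, differed by 0.12 and -0.12, and by 0.17 and 0.07 at their dimmer probe sets.

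Genes that set the chloride gradient, on which the effect of GABA and glycine depends, had 7 of 9 lower and 2 higher, beside 48% of all genes lower. Without daDREAM replicate 3 it was 5 lower and 4 higher. The median of the list was -0.11 over all arrays. That median was -0.28 without daDREAM replicate 1 and -0.03 without replicate 3. The importer Slc12a2 led with -0.35 (interval -0.88 to 0.18), at 9.90, 9.93 and 9.51 in wild type and 9.93, 9.32 and 9.05 in daDREAM. Replicate 1 of daDREAM matched the highest wild-type array and the other 2 were below all wild-type arrays. Without daDREAM replicate 1 the difference was -0.60 (limma unadjusted p = 0.0066, adjusted p = 0.218), and without replicate 3 it was -0.16. The remaining probe sets of Slc12a2 had the same sign, at -0.26 and -0.24. The kinase Wnk1 differed by -0.17, and the exporter Slc12a5 of mature neurons by -0.12 (interval -0.38 to 0.15). The other probe set of Slc12a5 had the opposite sign, at 0.26.

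**Figure D4:**
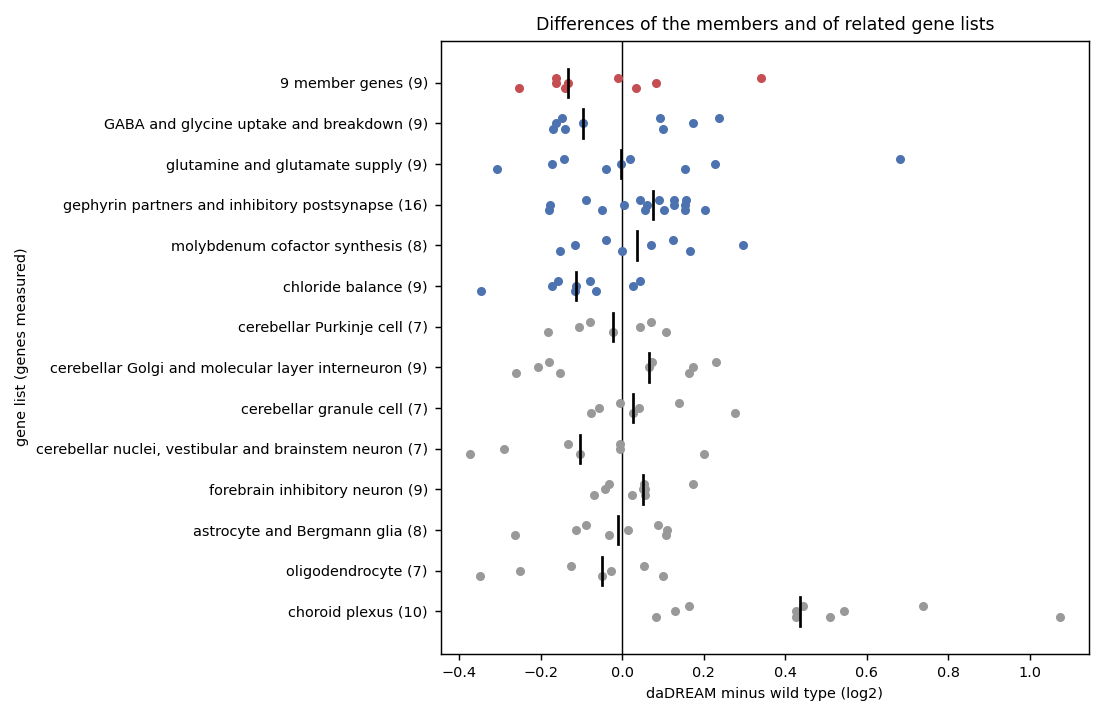
Difference between genotypes (daDREAM minus wild type, log2) of each gene's brightest probe set, for the 9 member genes (red), 5 pathway lists (blue) and 8 cell type marker lists (grey), with a black bar at each list's median. The members and pathway lists lie around 0, and the choroid plexus list stands apart with all 10 genes above 0.

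Markers of other cells that the dissection could hold were measured beside the members. Those of cerebellar nuclei, vestibular and brainstem neurons, regions rich in glycinergic cells, had 6 of 7 genes lower and 1 higher, with a median of -0.10 and list means of 5.07 to 5.23 in wild type and 4.83 to 5.18 in daDREAM. That median was 0.01 without wild-type replicate 3. Values of Chat, Tph2 and Hoxb5 were below the array medians and cannot be separated from background, so the count of 6 includes 3 such genes, among them the largest difference of the list, -0.37 at Chat (interval -0.76 to 0.01). Forebrain inhibitory neuron markers had 6 of 9 higher, with a median of 0.05 that was -0.11 without daDREAM replicate 3, at list means of 4.95 to 5.27. Among them Dlx1, Dlx2, Dlx5, Lhx6, Vip and Drd1 were likewise below the array medians. Astrocyte and Bergmann glia markers had 4 of 8 higher, and oligodendrocyte markers 2 of 7. Among these 4 lists Ugt8a, an enzyme of myelin lipid synthesis, was the single gene with an unadjusted p under 0.05, at a difference of -0.35 (unadjusted p = 0.0217, adjusted p = 0.998, limma). Choroid plexus markers had 10 of 10 higher, by a median of 0.44, with list means of 5.85 to 6.11 in wild type and 6.29 to 6.60 in daDREAM. Of these 10, 6 had an unadjusted p under 0.05, beside 1.42% of all genes, and genotypes did not overlap at 7, beside 5.59%, while none passed after adjustment. Calml4 and Aqp1, both among the 7, lay below the array medians on every array and cannot be separated from background. Calml4 was also 1 of the 6. The median lay between 0.34 and 0.53 when 1 array was left out. Their part in the member values was not tested.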

How the data were processed

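Cerebellar RNA of 3 wild-type and 3 daDREAM biological replicates was hybridised to 6 arrays. The authors deposited log2 expression values made with RMA from the affy package, per the submitters' processing notes. RMA corrects background, equalises the probe distributions of the arrays and summarises each probe set. No version of either is given here. The table held 45101 probe sets with values from 2.46 to 13.8 and no detection calls. Tests excluded 64 controls, and 34945 of the 45037 others have 1 gene symbol.

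Groups and replicate numbers came from the sample titles. The 2-sided test was that of limma 3.58.1 (lmFit, eBayes; R 4.3.3) over all 45037 probe sets, with Benjamini-Hochberg adjustment at 0.05. Nothing in the labels beyond the statement of independent biological replicates describes the animals. A difference had a median standard error of 0.15, since precision is limited by the number of arrays. The fit was checked on simulated data with independent noise and equal variance in both groups. That setting does not cover the wider, shared spread of the daDREAM arrays. Brightest means the highest mean over the 6 arrays.

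The members and gene lists were chosen with earlier results of these data known. The rule for named genes took every member probe set, the 2 largest differences and any unadjusted p under 0.05 in each pathway list, both Kcnip3 probe sets, and the 3 probe sets most correlated with each of 5 members. Other genes were named after their values were seen. Listed genes without a probe set of 1 symbol, 7 of 58 in the pathway lists, were not analysed here. Alternatives were a replicate block, median centring, renewed quantile normalization, a limit on mean level, a trended and robust prior, the hybridization controls as a covariate, each array left out, and 1 probe set or the mean value per gene. Promoters were searched with Python 3.11.15, and a planned look at protein sequences was not made.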

Additional observations from a re-analysis of the deposited data

How the results depend on the processing

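None of the member probe sets, and none of the 45037 probe sets, passed after adjustment under any alternative run. Counts at an unadjusted p under 0.05 moved. The members had 1 (Glra3 1450239_at) with the replicate number as a block, 1 (the same probe set) after renewed quantile normalization and 6 with the hybridization controls as a covariate. All probe sets together had 1093 (2.43%), 1361 (3.02%) and 10471 (23.2%) in these fits, in that order, against 817 (1.81%) in the main fit. When 1 array was left out, the members had 0 to 9 and all probe sets 324 to 7254, the highest without daDREAM replicate 1. Member probe sets whose genotypes did not overlap numbered 3 after quantile normalization, beside 8.29% of all probe sets, 0 with a mean level of at least 5 (6.58%), 0 with 1 probe set per gene (5.59%), 0 with probe sets averaged per gene (6.15%), and 1 to 11 with 1 array left out (9.91% to 32.7%). Leaving out arrays for the gene lists was chosen after seeing the data. Deviations of same-numbered arrays from their group means correlated at 0.119, -0.281 and 0.323. Wild-type replicates 1 and 3 were nearest to the daDREAM array of their own number, and wild-type replicate 2 to daDREAM replicate 1 (0.488). With 3 arrays per group these values cannot decide whether the replicate numbers pair the arrays.

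Signs turned at 16 member probe sets with the covariate and at 1 to 8 in 5 of the 6 fits without 1 array, and the cause was not tested. Glra1 1437139_at went to -0.017 after median centring and -0.024 after quantile normalization, which also took Gad2 1429589_at to 0.049. The level of the hybridization controls partly follows genotype. Fitted as a covariate, it turned these signs: Gad1 1416561_at 0.245, Gad2 1429589_at 0.232 and 1421978_at -0.206, Slc32a1 1422756_at 0.137 and 1456457_at -0.360, Slc6a5 1442177_at 0.584 and 1425992_at -0.312, Glra1 1422277_at -0.134 and 1437139_at -0.368, Glra2 -0.075, Glra3 1450239_at -0.173, Glrb 1422504_at 0.576 and 1459850_x_at 0.264, Gphn 1426463_at 0.053, 1426462_at 0.572 and 1430038_at 0.768. With 1 array left out, the ranges that crossed 0 were -0.107 to 0.073 for Gad2 1429589_at, -0.023 to 0.307 for Gad2 1421978_at, -0.033 to 0.227 for Slc32a1 1456457_at, -0.203 to 0.117 for Slc32a1 1447574_s_at, -0.443 to 0.102 for Slc6a5 1442177_at, -0.130 to 0.135 for Glra1 1437139_at, -0.43 to 0.10 for Glrb 1422504_at, -0.367 to 0.108 for Gphn 1426462_at and -0.577 to 0.0033 for Gphn 1430038_at. Dim signal limits the glycine receptor alpha subunits, since no detection call separates them from background.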
